A study of Mus musculus with 2 samples.

Results

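Accessible chromatin at and around 10 genes, Fos, Fosb, Fosl1, Fosl2, Jun, Junb, Jund, Atf3, Egr1 and Egr2, was examined by ATAC-seq in mouse GSCs lacking Stag3. ATAC-seq marks open chromatin by the sites where the Tn5 transposase can insert sequencing adapters. The genes were taken as a fixed list of AP-1 subunits and immediate early transcription factors, 10 of 21887 protein-coding genes placed on the chromosomes used. Their accessible sites were the peaks in the gene or within 50 kb of it that overlapped a peak of the other library by 1 bp or more. Peaks that overlapped were joined, which gave 121 shared regions around the 10 genes, of 81478 in the genome. No region lay in the windows of more than 1 of them. The series held 1 group of 2 libraries, replicate 1 and replicate 2, both with the genotype Stag3 KO and both from the line labelled Acrosin-EGFP; beta-Actin-EGFP (AAG), whose viable reporter-positive cells were sorted, 50000 per reaction. GSCs are germline stem cells, the cultured counterpart of spermatogonial stem cells. Nothing in the labels tells if each library had a culture of its own. The design text names wild-type cells as the comparison; they were not analysed here, so every value describes knockout cells and none is an effect of the knockout.

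AP-1 is a dimeric transcription factor built from Fos and Jun family proteins, which pair through a leucine zipper and bind DNA through the adjoining basic region. Immediate early genes are those that a growth factor or stress signal switches on within minutes, without new protein synthesis. Fos, Jun and the EGR genes are textbook cases, driven by serum response factor with its ETS partners at the CArG box and by CREB and ATF proteins at the cyclic AMP response element. Their transcription is brief, yet their promoters are commonly accessible before any signal arrives, so an open promoter is not by itself a sign of expression. In cultured spermatogonial stem cells such signals reach the nucleus from GDNF and FGF receptors through kinase cascades.

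Promoter sequences are shown for the 5 genes in which a shared region covered all of the 200 bases before the start used, namely Fos, Jun, Junb, Atf3 and Egr2. They are RefSeq sequences of GRCm38.p6, written 5′ to 3′ on the strand of the gene, and the last base printed is the one before the start. Capitals mark TATAAA, the core TGACG of the cyclic AMP response element on either strand, and the CArG box.
Fos: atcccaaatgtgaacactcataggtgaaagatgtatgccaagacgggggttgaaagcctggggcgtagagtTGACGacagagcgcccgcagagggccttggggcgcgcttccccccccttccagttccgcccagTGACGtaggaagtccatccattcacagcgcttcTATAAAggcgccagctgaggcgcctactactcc
Jun: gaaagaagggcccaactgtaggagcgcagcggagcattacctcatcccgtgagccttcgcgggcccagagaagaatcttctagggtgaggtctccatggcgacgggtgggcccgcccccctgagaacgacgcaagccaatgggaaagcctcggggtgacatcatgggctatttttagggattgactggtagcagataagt
Junb: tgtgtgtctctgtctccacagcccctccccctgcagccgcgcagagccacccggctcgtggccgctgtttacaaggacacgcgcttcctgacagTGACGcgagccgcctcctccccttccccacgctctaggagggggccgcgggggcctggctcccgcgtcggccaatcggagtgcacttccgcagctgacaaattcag
Atf3: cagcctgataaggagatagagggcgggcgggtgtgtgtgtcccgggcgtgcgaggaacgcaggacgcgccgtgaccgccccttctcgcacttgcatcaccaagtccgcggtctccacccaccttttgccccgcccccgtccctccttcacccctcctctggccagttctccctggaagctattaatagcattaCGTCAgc
Egr2: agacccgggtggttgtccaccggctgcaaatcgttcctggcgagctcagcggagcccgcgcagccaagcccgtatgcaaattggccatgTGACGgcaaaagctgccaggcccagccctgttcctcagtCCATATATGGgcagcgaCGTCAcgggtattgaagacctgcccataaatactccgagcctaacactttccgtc
The stretches lie on chr12:85473690-85473889 (plus strand) for Fos, chr4:95052223-95052422 (minus) for Jun, chr8:84978749-84978948 (minus) for Junb, chr1:191183334-191183533 (minus) for Atf3 and chr10:67537669-67537868 (plus) for Egr2. Their GC content was 58.5% at Fos, 58.0% at Jun, 68.0% at Junb, 63.5% at Atf3 and 59.0% at Egr2, against a median of 53.0% over the same stretch of 32851 promoters in that table. Those promoters belong to 27025 genes, noncoding genes among them, and a gene with several starts counts more than once. The motif shares below use the same set.

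Motifs were counted on both strands in the table's promoter windows, from 250 bases before to 50 after the start, for the 8 of the 10 genes with such a window. The core TGACG was present at 5 of 8 genes, Fos, Fosb, Junb, Atf3 and Egr2, and in 20.8% of all windows. Fos held it with its first base 129 and 66 bp before the start, Egr2 at 111 and 55 bp, Junb at 106 bp, Fosb at 60 bp and Atf3 at 7 bp. The full element TGACGTCA, which contains that core, was in none of the 8 windows and in 1.79% of all. A CArG box was found at Egr2, 72 bp before the start, and in 1.63% of all windows. TATAAA stood 33 bp before the start of Fos and at the start base of Junb, and in 13.6% of all windows. The AP-1 motif TGANTCA (7.81% of all windows) and the ETS motif CCGGAA (14.9%), as written, were in none of the 8. The EGR motif GCGNGGGCG, which can overlap GGGCGG, was at Fosb and Fosl2 (5.55% of all). GGGCGG itself was at Fos, Fosb, Fosl2, Jun and Atf3 (35.7%), and CCAAT was at Jun, Junb, Atf3 and Egr2 (37.4%). These are matches of letters in a fixed window. They do not show that a factor was bound, and elements farther from the start were not searched. Variant or shorter forms were not searched either, such as TGACATCA in the Jun stretch and GGAA in the Fos stretch printed above.

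Each of the 10 genes had a shared region within 1000 bp of a start, compared with 66.1% of all protein-coding genes. With the 50000 peaks of highest fold of each library, 6 of the 10 had one, all but Fosl2, Junb, Jund and Atf3, compared with 51.1% of all. For Fosl1 and Egr1, which had no entry in the promoter table, both ends of the gene model were used, and the region lay at the lower-coordinate end in each case. In 7 of 10 genes a shared region covered a start base, compared with 57.5% of all protein-coding genes. The exceptions were Fosb, Fosl2 and Jund, whose nearest region stopped 167, 414 and 547 bp from the listed start.

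Within the Fos family the start of Fosl1 had the highest fold in both libraries, and those of Fos, Fosb and Fosl2 lay between 6.64 and 11.8. Fold is the enrichment over local background that the authors' peak caller gave. Fos, the founding member, lies on chromosome 12 at 85473890 to 85477274, and its start region at 85473401 to 85474267 had a fold of 10.1 in replicate 1 and 11.8 in replicate 2, from 177 and 212 tags at the summit. The summits lay within 20 bp of the start in both libraries. Fosb, whose product resembles that of Fos and has a truncated isoform known from brain, lies on chromosome 7 at 19302696 to 19310118. Its region at 19310212 to 19310582 had folds of 9.91 and 10.1 and 254 and 249 tags, so the libraries differed little. A second region inside Fosb, with its summit 1323 bp downstream of the start, held more tags, 319 and 346. Fosl1, which encodes FRA1, a Fos protein without the strong activation domain, lies on chromosome 19 at 5447698 to 5455938. Its region at 5447414 to 5448002 had folds of 19.1 and 21.2 from only 121 and 143 tags. Fosl2, which encodes FRA2, lies on chromosome 5 at 32136472 to 32157840. Its region at 32135253 to 32136058 ended before the gene began, with folds of 6.64 and 10.1 and with 111 and 205 tags. No other of the 10 start regions had a higher ratio between the libraries.

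Within the Jun family the start of Jun held the most tags and that of Junb the fewest. Jun, the main partner of Fos, lies on chromosome 4 at 95049036 to 95052222. Its start region at 95051707 to 95052962 was 1256 bp wide and had folds of 11.2 and 14.4 from 331 and 455 tags. It also lay within 1000 bp of a listed start of Junos, a long noncoding RNA gene that runs the other way. The signal therefore cannot be assigned to either gene alone. Junb, a Jun protein that can oppose Jun and acts in cell cycle exit, lies on chromosome 8 at 84976909 to 84978748. Its start region at 84978666 to 84978995 was narrow, 330 bp, and weak, with folds of 3.70 and 4.22 from 71 and 91 tags. A region past the 3′ end of Junb, with its summit 2119 bp downstream of the start, was stronger, with folds of 11.1 and 13.1 and 213 and 281 tags. Jund, the most steadily expressed Jun gene in most cells, lies on chromosome 8 at 70697739 to 70700616. Its region at 70698286 to 70699611 lay wholly inside the gene, with folds of 8.01 and 12.1 from 243 and 246 tags. The summits of the Jund region lay 706 and 1048 bp downstream of the listed start, so the 2 peaks overlapped without marking the same position.

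Among Atf3 and the EGR genes, Egr1 held the most tags and Egr2 had the highest fold in both libraries. Atf3, which encodes a stress-induced bZIP protein that pairs with Jun proteins, lies on chromosome 1 at 191170296 to 191183333. Its start region at 191182349 to 191183689 was 1341 bp wide, with folds of 7.32 and 9.73 and 80 and 101 tags. Replicate 2 had 2 separate peaks where replicate 1 had a single wide one. Egr1, a zinc finger factor and standard marker of kinase signalling, lies on chromosome 18 at 34861207 to 34864956. Its region at 34860396 to 34861600 was 1205 bp wide and had folds of 10.1 and 12.8 from 340 and 396 tags, second to Jun in replicate 2 and above it in replicate 1. Egr2, a related zinc finger factor best known from hindbrain and Schwann cells, lies on chromosome 10 at 67534469 to 67542188 and has 5 listed starts. The region over the downstream starts, at 67537300 to 67537969, had folds of 12.0 and 13.6 from 225 and 301 tags. The other 3 regions near listed starts of Egr2 were weak, with folds between 2.54 and 3.75.

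Ordered by the mean fold of both libraries, Fosl1 stood first at 20.1 ± 1.49 (SD, n = 2) and Junb last at 3.96 ± 0.371. Between them came Jun (12.8 ± 2.21), Egr2 (12.8 ± 1.12), Egr1 (11.4 ± 1.90), Fos (10.9 ± 1.19), Jund (10.1 ± 2.90), Fosb (10.0 ± 0.158), Atf3 (8.53 ± 1.70) and Fosl2 (8.39 ± 2.48). The pairs of values of Fosl1 and of Junb did not overlap those of any other gene. Among the 8 genes in between, each neighbouring pair in this order had overlapping values except Fosb and Atf3, for which 9.73 in replicate 2 of Atf3 fell just short of 9.91 in replicate 1 of Fosb. The order by tags was different, from Jun (393 ± 87.7), Egr1 (368 ± 39.6), Egr2 (263 ± 53.7) and Fosb (251.5 ± 3.54) through Jund (244.5 ± 2.12), Fos (194.5 ± 24.7), Fosl2 (158 ± 66.5) and Fosl1 (132 ± 15.6) to Atf3 (90.5 ± 14.8) and Junb (81.0 ± 14.1).

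**Figure D1:**
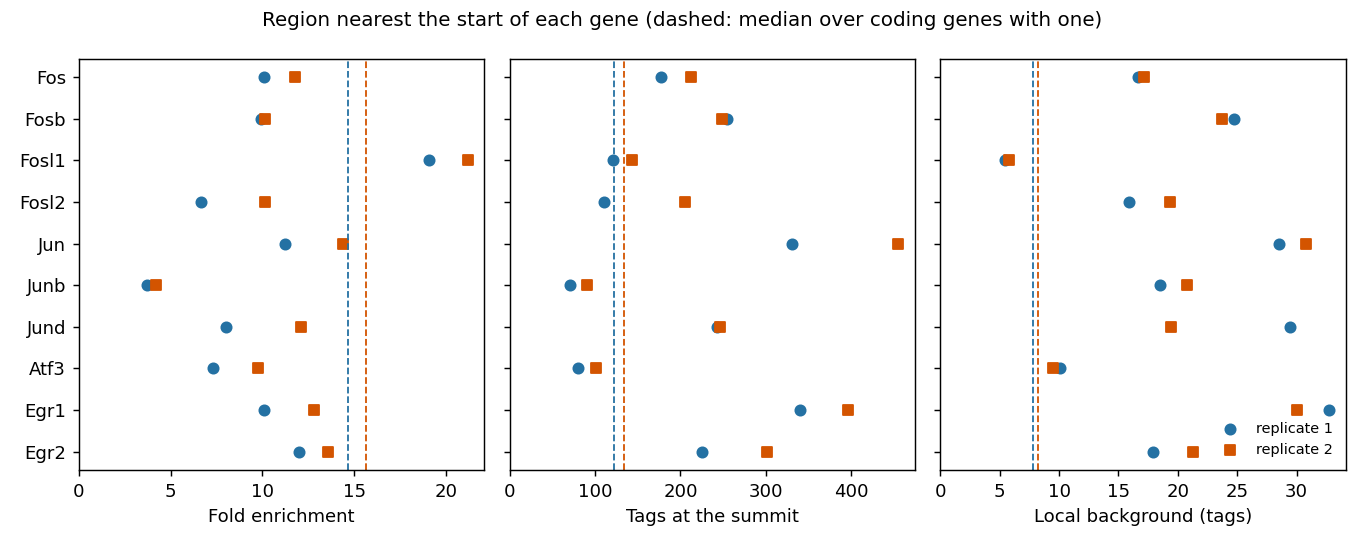
Fold enrichment, tags at the summit and local background in tags for the region nearest the start of each of the 10 genes, with 1 point per library. Dashed lines are medians over 14475 protein-coding genes with a start region (fold 14.7 and 15.6, tags 122 and 134, background 7.82 and 8.22). In the left panel only Fosl1 lies to the right of both lines, and in the right panel only Fosl1 lies to the left of both.

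The start regions of these genes combined a low fold with a high local background. Local background is the number of tags the caller expected at the summit from its surroundings. Regions close together had nearly the same value. In replicate 1 it was 16.68 tags at the start region of Fos and 16.64 at its downstream neighbour. At Jun it was 28.56 at the start region and 28.26 at its upstream neighbour. High background and the flanking regions described below may therefore not be separate results. The genes were compared with the 14475 protein-coding genes that had a start region. Fold was below the median of those genes in both libraries at 9 of the 10, which holds for 46.0% of the 14475. Local background was above the median in both libraries at 9 of the 10, which holds for 46.7%. The exception was Fosl1 in both counts. At Egr1 the background was 32.8 tags in replicate 1 and 30.1 in replicate 2, percentiles 99.4 and 98.6. Jun had 28.6 and 30.8 tags (percentiles 98.8 and 98.8), Fosb 24.7 and 23.7 (97.7 and 96.3) and Jund 29.5 and 19.4 (98.9 and 92.8). Junb, Egr2, Fos and Fosl2 had between 15.9 and 21.3 tags, and Atf3 had 10.1 and 9.48 (66.6 and 59.1). Fosl1, at 5.40 and 5.80 tags, stood at percentiles 28.4 and 29.9. The median of the 10 genes stood at percentile 92.8 of background in replicate 1 and 93.5 in replicate 2, at 71.0 and 71.5 of tags, and at 27.9 and 34.1 of fold. Fold is tags plus 1 over background plus 1, so these 3 quantities are tied and do not count as separate results. By these medians the 10 genes stood below the middle of all start regions in fold and above it in tags. Single genes varied in tags, which were above the median in both libraries at 6 of the 10. Junb (tag percentiles 28.2 and 34.5) and Atf3 (32.8 and 38.7) were below it in both, and Fosl1 (49.8) and Fosl2 (46.1) in replicate 1. Both comparisons were chosen after the values had been seen.

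**Figure D2:**
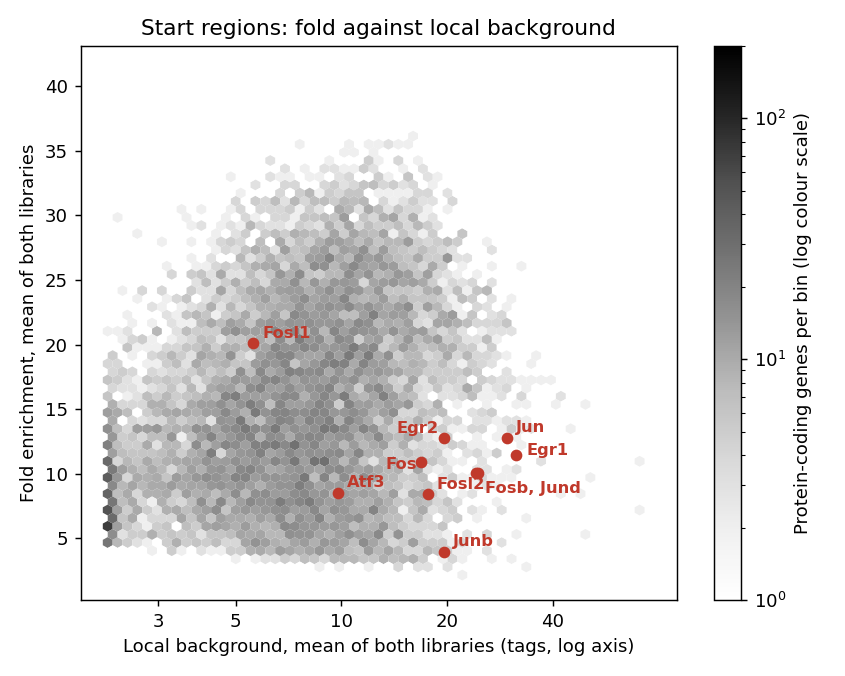
Fold enrichment against local background (log axis), both as means of the 2 libraries, for the start regions of protein-coding genes, with the 10 genes in red. All but Fosl1 lie to the right of the median background, with Jun, Egr1, Fosb and Jund near the right edge of the cloud, while Fosl1 lies to the left with a fold of 20.1.

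The start regions were often accompanied by further regions close by. Each of the 10 genes had 2 or more shared regions within 5 kb of a start, compared with 37.7% of all protein-coding genes. With the 50000 peaks of highest fold of each library the count fell to 2 of 10, compared with 9.05% of all. The distance of 5 kb was chosen after the values had been seen. Fos had regions with summits 1630.5 bp before and 747.5 bp after its start, with folds of 6.63 and 7.48, and of 3.97 and 3.96. At Fosl2 the neighbours lay 2717 and 3405.5 bp before the start, with folds of 7.34 and 6.14, and of 2.98 and 3.64. Jun had a region 1063.5 bp before its start, inside Junos, with folds of 5.19 and 6.38, and Atf3 had one 1694 bp before (5.27 and 3.84). The region 1306 bp below the start of Egr1 had folds of 3.58 and 3.27 but held 114 and 100 tags, more than the start region of Atf3 in replicate 1 and close to it in replicate 2. These flanking regions of Fos, Fosl2, Jun, Atf3 and Egr1 each had a lower fold than the start region of their gene in both libraries, with the exception of the replicate 1 value at Fosl2 (7.34 against 6.64). Junb and Fosb had a region within 5 kb with a higher fold than the start region in both libraries. At Junb it lay 2119 bp downstream, with 11.1 and 13.1 against 3.70 and 4.22. At Fosb it lay 1323 bp downstream, with 9.93 and 11.8 against 9.91 and 10.1.

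The number of shared regions per window varied from 5 to 23. Fosb had 23, Junb 19 and Fosl1 15, which put them at percentiles 98.7, 96.9 and 90.8 of all protein-coding genes treated the same way. These 3 windows also held 7, 8 and 11 other protein-coding genes, and 8, 8 and 9 of their regions lay near the start of another gene. Jund had 11 regions among 5 other genes, Egr1 had 11 among 3, and Atf3 had 11 with 1 other gene. Fos had 12 regions (percentile 80.8) with no other protein-coding gene in its window. Egr2 had 9 with 1 other gene. Fosl2 and Jun had 5 each (percentile 33.9), also with no other protein-coding gene. These 2 counts depended on the library, since Fosl2 had 8 peaks in replicate 2 alone and 7 in replicate 1 alone, and Jun had 6 and 8. The median of the 10 genes was 11 regions and that of all protein-coding genes was 7, with quartiles of 4 and 11. Of the 121 regions, 17 lay near a start of the gene itself, 41 near a start of another gene and 63 away from listed starts. The median number away from starts was 5.5 for the 10 genes and 4 for all. At the edge of the window, the 2 outermost regions counted were 49178 and 49738 bp from Fosb (folds of 8.02 and 6.70, and of 6.38 and 7.96), and the nearest regions left out were 50241 and 50879 bp from it (3.76 and 5.10, and 8.13 and 9.02).

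**Figure D3:**
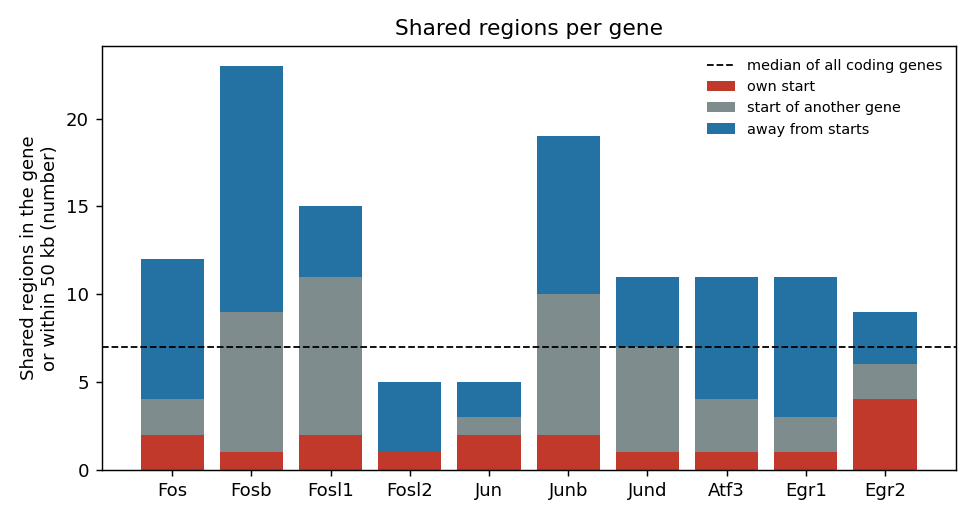
Number of shared regions in the gene or within 50 kb of it for each of the 10 genes, stacked by whether the region lies near a start of the gene itself, near a start of another gene, or away from both. The dashed line is the median of 7 over all protein-coding genes; Fosl2 and Jun, with 5 each, are below it and the other 8 genes above it.

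Around every one of the 10 genes, at least 1 other shared region had a higher fold than the start region in both libraries. This held for 73.7% of the 14475 protein-coding genes with a start region, so such regions were common in general. It did not hold for tags at Fosl2, Jun, Egr1 and Egr2. In their windows no other region held more tags than the start region in both libraries. The 2 regions away from starts with the highest fold percentile are given here for each gene. Distance does not show which gene a region acts on. Downstream of Fos they lay 12.2 and 18.3 kb from the start, in intergenic sequence on chromosome 12 at 85485714 to 85486434 and at 85492051 to 85492608. The first had folds of 21.0 and 24.1 from 227 and 244 tags, above the start region of Fos on both measures. The second had folds of 15.6 and 18.4 from 127 and 151 tags. Around Fosb they lay inside neighbours, with 28.1 and 27.3 in Vasp, 52.5 kb away, and 18.4 and 21.7 in Rtn2, 14.1 kb away. Those of Fosl1, 31958 and 13978 bp below it, had lower folds than its start region, 12.2 and 8.75, and 6.27 and 10.6, from no more than 38 tags. Fosl2 had one 61.4 kb downstream of its start, past the 3′ end, with folds of 20.4 and 16.9 from 66 and 53 tags. Another lay 40.4 kb upstream in the noncoding gene Gm40277, with folds of 8.47 and 14.9 from 26 and 46 tags.

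Around Jun, the regions lay 48.3 kb upstream inside Junos (folds of 16.9 and 13.8) and 43.8 kb downstream inside the noncoding gene Gm12694 (11.6 and 11.2). They held 62 and 53, and 36 and 34 tags, beside 331 and 455 in the start region of Jun. Those of Junb lay inside Mast1 (21.4 and 22.3) and Rtbdn (15.99 and 21.1), and those of Jund both lay inside Pde4c (18.3 and 18.8, and 12.1 and 14.3). Downstream of Atf3, past its 3′ end, regions 44.7 and 48.4 kb from the start had folds of 19.4 and 17.6, and of 17.4 and 18.1. For Egr1 a region 10.9 kb below the start, inside the noncoding gene Gm41689, had folds of 27.4 and 29.2 from 227 and 237 tags, the highest fold of its window in both libraries. A second region 35.1 kb above the start had 24.2 and 19.02. Those of Egr2 formed a pair 20031 and 19330.5 bp upstream inside the noncoding gene Gm32255, with folds of 13.7 and 13.5, and of 9.76 and 10.99.

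**Figure D4:**
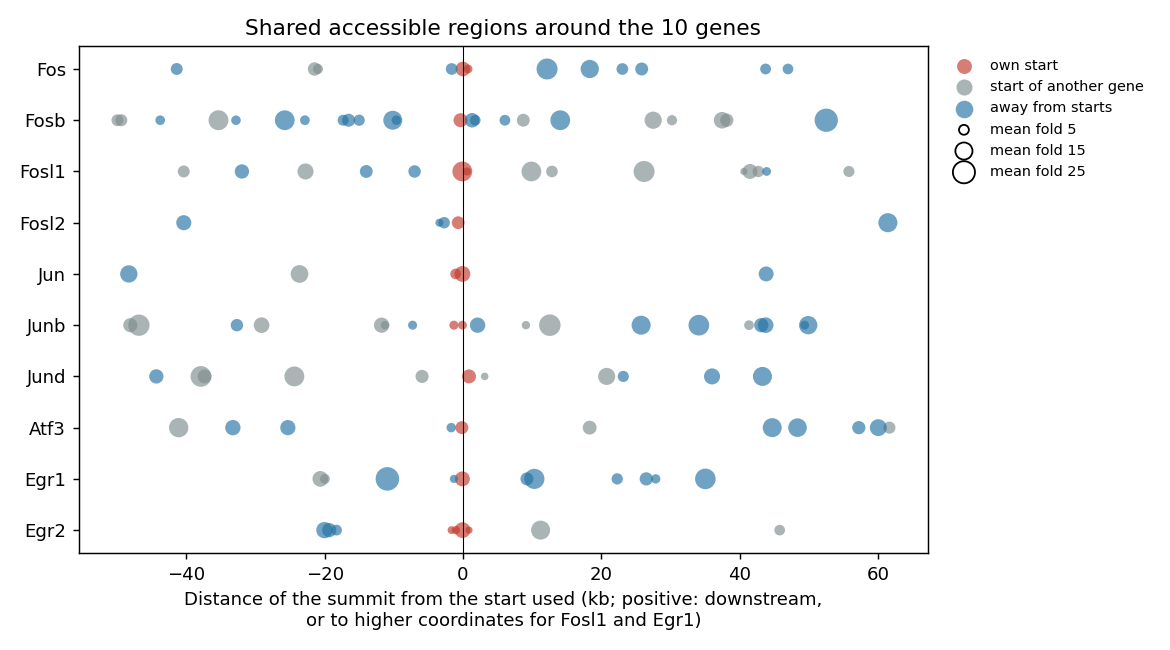
Position of the 121 shared regions relative to the start used for each gene, in kb, with the area of each point proportional to the mean fold of both libraries. Positive distances are downstream, or at higher coordinates for Fosl1 and Egr1. Larger points away from the start include those at 12.2 kb for Fos, 10.9 kb below Egr1 and 52.5 kb for Fosb. Others stand at 34.1 kb for Junb and at 61.4 kb for Fosl2.

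Both libraries found most of these sites. Replicate 1 had 147 peaks in the 10 windows and replicate 2 had 148, a mean of 147.5 ± 0.707 (SD, n = 2). Of these, 126 were shared in each library, which is 85.7% in replicate 1 (95% Wilson interval 79.1 to 90.5) and 85.1% in replicate 2 (78.5 to 90.0). Over the whole lists the shares were 78.0% and 84.9%, so the share around these genes was above that of the list in replicate 1 and close to it in replicate 2. The intervals cover counting error only.

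At the starts, replicate 2 mostly had more tags than replicate 1. It did so at 9 of the 10 genes, Fosb being the exception, compared with 70.5% of the 14475 start regions, so most of this count is shared with start regions in general. The median ratio of tags, replicate 2 over replicate 1, was 1.23 for the 10 genes and 1.11 for all start regions, whose quartiles were 0.978 and 1.24. Fosl2 had the highest ratio of the 10, 1.85, at percentile 98.9 of all start regions, followed by Jun (1.37), Egr2 (1.34), Junb (1.28) and Atf3 (1.26). Away from starts, 34 of 63 regions had more tags in replicate 2, with a median ratio of 1.03. Near starts of other genes 26 of 41 did, with a median of 1.13. The 2 libraries are of 1 condition, and the spread between them may be technical.

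**Figure D5:**
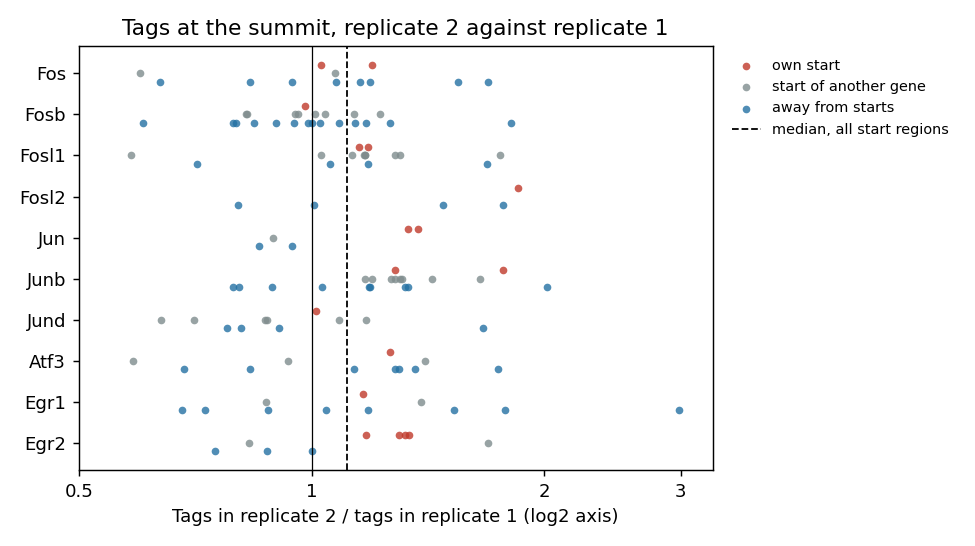
Ratio of tags at the summit, replicate 2 over replicate 1 (log2 axis), for each of the 121 shared regions, by gene and by class of region. Of the 17 regions at the genes' own starts, 16 lie to the right of 1, whereas the regions away from starts lie on both sides of it. Of the nearest start regions of all protein-coding genes with one, 70.5% had a ratio above 1.

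The wider pathway was accessible at nearly all of its genes. Of 85 related genes, 83 had a shared region within 1000 bp of a start, beside 66.1% of all protein-coding genes. With the 50000 peaks of highest fold of each library, 56 of the 85 had one, compared with 51.1% of all. Each of the 31 other immediate early genes had one, and by the mean of both libraries Ier5 (folds of 21.6 and 24.7) and Klf6 (21.0 and 24.8), a zinc finger factor, stood first. Local background was above the median in both libraries at 27 of these 31, compared with 46.7% of all start regions. Fold was below the median in both at 18 of the 31, compared with 46.0%. The same genes had medians of 15.1 and 14.5 background tags, beside 18.2 and 20.1 for the 10 genes. Among 18 other ATF, CREB, MAF and BATF genes 16 had a start region, with Atf6 (23.8 and 26.6) and Mafk (24.2 and 22.9) at the top, and Atf7 and Batf2 had none. Local background was above the median in both libraries at 8 of these 16, near the 46.7% of all start regions. Over all 83 related start regions, background was above the median in both libraries at 57, the kinases and phosphatases having 15 of 22, and fold was below it at 45.

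The starts of upstream factor, kinase, phosphatase and corepressor genes were accessible as well. Each of 10 upstream transcription factors had a start region, compared with 66.1% of all protein-coding genes. Ets1 had folds of 34.5 and 31.8, and Mrtfa, a serum response factor coactivator, had 27.8 and 30.2. Srf itself had 13.3 and 13.7 from 375 and 460 tags. Among 22 kinases and phosphatases, each with a start region, Map2k4 (24.3 and 28.9) and Map2k1 (24.9 and 27.2) stood first. All 4 corepressor genes had one, and at all 4 the fold was below the median in both libraries, compared with 46.0% of all start regions. Nab2, whose product restrains EGR proteins, had 6.24 and 8.67, and Ncor1 had 11.6 and 13.6.

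Replicate 1 held 107331 peaks and replicate 2 held 98986, with medians of 40 and 41 tags at the summit. The files give no read depth. Shared regions stood at the starts of 17 of 17 GSC markers, compared with 66.1% of all protein-coding genes. By the mean of both libraries, Id4 (21.0 and 23.3) and Epcam (23.2 and 21.1) had the highest folds of the 17. Most of these markers had weaker starts, with fold below the median in both libraries at 10 of 17, compared with 46.0% of all start regions. Background at these GSC starts was above the median in both libraries at 13 of 17, compared with 46.7% of all start regions. Of testis somatic cell markers 7 of 12 had one and of feeder fibroblast markers 6 of 10, both near the share over all genes, and of blood and endothelium markers 3 of 8. The 2 highest of each list were Acta2 (27.2 and 25.7), Cyp11a1 (24.6 and 27.1), both above Id4 and Epcam, then Col1a1 (14.1 and 15.4), Pdgfrb (14.1 and 13.96), Csf1r (20.9 and 20.8) and Kdr (13.2 and 13.7). Amhr2, Gata4, Col3a1, Dcn, Adgre1 and Cdh5 were among those without a region. Since open promoters do not measure expression, the share of other cells in the libraries was not tested. In the targeted gene Stag3 the region nearest a listed start had folds of 19.9 and 18.8, and the labels do not say which part of the gene was removed.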

How the data were processed

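ATAC-seq peak lists of 2 Stag3 KO libraries were used, 1 for each sample. The submitters' processing notes name MACS2 2.1.1, Bowtie2 2.3.4.1 and the builds mm10 and GRCm38.p3, beside deepTools 3.5.0, Trim Galore, bedtools 2.29.2 and Picard 2.18.23; their settings, including any shift for the Tn5 insertion site, are not given in the sources used here. Going by the narrowPeak column order, since the files have no header, the deposited fold enrichment is a ratio over local background, and the deposited −log10 p and −log10 q values come from the same caller. The deposited score, 10 times −log10 q cut to a whole number, and the summit offset were the remaining values, of which the score was not used.

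Tags at each summit were recovered from fold, as tags plus 1 over background plus 1, and from the Poisson p-value. For 100% of peaks in both libraries a whole tag number solved both, to within 0.0002 plus 0.0001 of the −log10 p. Overlapping peaks were chained into regions, and the highest-fold peak of each library gave a region its values. Gene positions and promoter windows came from RefSeq tables of GRCm38.p6; 17492 of 21887 protein-coding genes had listed starts, and both gene ends stood in for the other 4395. Where several regions lay near a start, the nearest was used. No test was run, since there is 1 condition. The code was tested on simulated data (Python 3.11.15, pandas 2.3.3, scipy 1.17.1). The members and lists were chosen with earlier results of these data known. Named genes were the 10 genes, their 2 strongest regions away from starts, and per related list the 2 highest by fold at the start and up to 2 with no region; Srf was added after its values were seen. Of the marker names, Plzf found no match. Alternatives concerned the window, the overlap, the threshold on peaks, the library and the nearest gene.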

Additional observations from a re-analysis of the deposited data

How the results depend on the processing

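Counts were recomputed under each alternative, and 25 of 31 stayed within 1.5 times the main count. With the 50000 peaks of highest fold of each library, the shared regions around the 10 genes numbered 55 in place of 121. Genes with a start region were 6 in place of 10, and genes with a high local background were 5 of these 6 in place of 9 of 10. Genes with 2 or more regions within 5 kb of a start were 2 in place of 10. Related genes with a start region were 56 in place of 83, which stayed within 1.5 times. The 121 regions became 73 within 25 kb and 54 when only regions nearest to one of the 10 genes counted. Without replicate 1 and without replicate 2, the own peaks of the remaining library numbered 148 and 147 around the 10 genes, with 10 genes having a start peak, 9 a high background, 10 with 2 or more peaks within 5 kb and 83 related genes a start peak in either case. An overlap of at least 0.5 of both peaks left 9 genes with a start region, as did a window of 500 bp. For single genes, 55 of 80 counts stayed within 1.5 times; leaving out a library moved 2, Fosl2 from 5 to 8 without replicate 1 and Jun from 5 to 8 without replicate 2. The alternatives on background and on the 5 kb window were chosen after seeing the data. No paired analysis was possible because both libraries belong to 1 group. With unknown read depth, a site missing from a list may be one too shallow to be called.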
